A study of Caenorhabditis elegans with 14 samples.

Results

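The membrane traffic genes described here are 56 genes of C. elegans whose public names begin with rab, arf, arl, vps, snx or sec followed by a number, taken by that name rule from the 20314 genes measured. They comprise 20 Rab GTPases, 10 Arf and Arl GTPases, 15 vps genes, 2 sorting nexins and 9 sec genes. Each was followed by ChIP-seq of RNA polymerase II, which sequences the DNA fragments an antibody pulls down together with the crosslinked polymerase. Read density over a gene then measures how much polymerase lay on it. The larvae were wild type, strain N2, and whole animals were used, so that polymerase on fewer cells and less polymerase per cell cannot be told apart. In the recovery group, larvae that had hatched without food were held for 12 hr in L1 arrest, the starvation arrest of the first larval stage, then given HB101 bacteria and crosslinked 1 hr later. The 12 hr arrest group was crosslinked at 12 hr unfed, and the 6 hr arrest group at 6 hr unfed. Antibodies S2, 4H8 and 8WG16 all recognise the repeat tail of the large polymerase subunit. S2 is directed at the tail phosphorylated on serine 2, as found on polymerase in elongation, and 8WG16 prefers the unphosphorylated tail.

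Membrane traffic moves proteins and lipids between compartments in vesicles. Rab, Arf and Arl proteins are small GTPases that, when bound to GTP, recruit coats, motors and tethers to a given membrane. Coats such as COPII, with its SEC-23 and SEC-24 subunits, form vesicles at the endoplasmic reticulum, tethers such as the exocyst and HOPS catch vesicles at their target, ESCRT sorts membrane proteins into the lysosomal path, and retromer with its sorting nexins returns proteins from endosomes. In C. elegans these genes serve yolk and cuticle secretion, nutrient uptake, lysosomal breakdown and cilia, which are found only on sensory neurons.

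Values are densities in RPKM, reads per kilobase scaled to sequencing depth, over the gene model (gene density) and over a 200 bp window at the annotated start (TSS density). There were 9 ChIP libraries. Recovery and 12 hr arrest each had S2 (1 library), 4H8 (2 libraries) and 8WG16 (1 library), and 6 hr arrest had 1 S2 column. Series of 4 values below follow the order S2, 4H8 replicate 1, 4H8 replicate 2, 8WG16. ChIP libraries held 1322000 to 5863000 reads, and the median membrane traffic gene had 37.5 to 190 reads per library over its model but only 2.69 to 15.0 reads in its start window. A window with 3 reads corresponded to 2.56 RPKM in the deepest ChIP library and 11.3 RPKM in the shallowest, and these limits cover counting error only. Changes are log2 ratios of recovery over 12 hr arrest on the log2(RPKM + 5) scale ± SE of a limma fit with antibody as a term, which understates changes at low density, and adjusted p is limma's after Benjamini-Hochberg adjustment over all genes tested. A gene was called changed at an adjusted p under 0.05.

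The genes were spread over all chromosomes, with 11 each on I, II and III, 10 on IV, 5 on V and 8 on X. Their gene models had a median length of 2237 bp, from 665 to 14429 bp. Of the 56, 14 (25%) overlapped another gene model, against 12.6% of all genes, and 17 (30.4%) had a model on the same strand ending within 500 bp upstream, against 15.8% of all genes. Short-read density cannot separate a gene from an overlapping or closely following neighbour, and neighbours within 1000 bp of a called gene are given below where they were themselves called in the same measure.

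Averaged over the 9 ChIP libraries, gene density had a median of 15.5 RPKM over the 56 genes, against 7.41 RPKM over all genes. It ran from 2.86 RPKM at rab-30 to 76.6 RPKM at rab-11.1, a GTPase of recycling endosomes. The next highest were arl-13 at 70.5 RPKM, which encodes a GTPase of cilia, and rab-1 at 49.6 RPKM, which encodes the GTPase of traffic from the endoplasmic reticulum to the Golgi. By family the median was 23.2 RPKM for Arf and Arl genes, 16.9 RPKM for Rab genes, 11.4 RPKM for vps genes and 10.8 RPKM for sec genes. In arrest rab-11.1 was the highest of the 56 in each of the 5 libraries from 6 or 12 hr, and in recovery arl-13 was the highest in each of the 4 libraries.

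The pooled input, crosslinked chromatin sequenced without antibody, gave the background for these densities. Gene density exceeded the input at 35 of the 56 genes in recovery and at 32 in 12 hr arrest, whereas 26.6% and 25.5% of all genes did. TSS density was above 2 times the input at 12 genes in recovery and at 23 genes in 12 hr arrest, while 8.21% and 13.2% of all genes passed that level. Gene density was above 2 times the input at 8 genes in recovery and 11 in 12 hr arrest, against 6.17% and 6.29% of all genes. At genes with a density near or below the input, such as rab-30, rab-37 and the second SNF7-type gene vps-32.2, no polymerase above background was detectable at this depth.

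After 1 hr of feeding, polymerase over the gene body changed at 8 of these genes, 2 upward and 6 downward. Of the 56 genes, 36 passed the filter of 10 RPKM mean density and 20 did not. Of the 36, 2 were called higher in recovery (arl-13 and sec-24.1) and 6 lower (rab-1, rab-7, rab-5, arl-5, rab-39 and rab-14). Over all 7214 genes tested, 38% were called, 22.9% higher and 15.1% lower, so the 22.2% called here was a smaller share than the background. Rab, Arf and Arl GTPases made up 20 of the 36 genes and 7 of the 8 called, and the 35% of them called was near that background. The median change was -0.12 for the 36 genes and 0.08 for all genes tested. Recovery was higher than arrest in all 4 antibody pairs at 5 of the 36 genes and lower in all 4 at 11, against 35% and 21.8% of all genes tested. All 5 Rab genes called were lower, and the 38.5% of Rab genes called was near the 38% of all genes. Among the 13 Rab genes tested, 12 had a change below 0, against 3005 of all 7214 genes tested. The exception was rab-21 at 0.30 ± 0.11 (adjusted p = 0.0565 by limma). In the plot of changes by role, the called genes lie in the ER and Golgi, endosome and lysosome, COPII, cilium and unclassified groups.

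**Figure D1:**
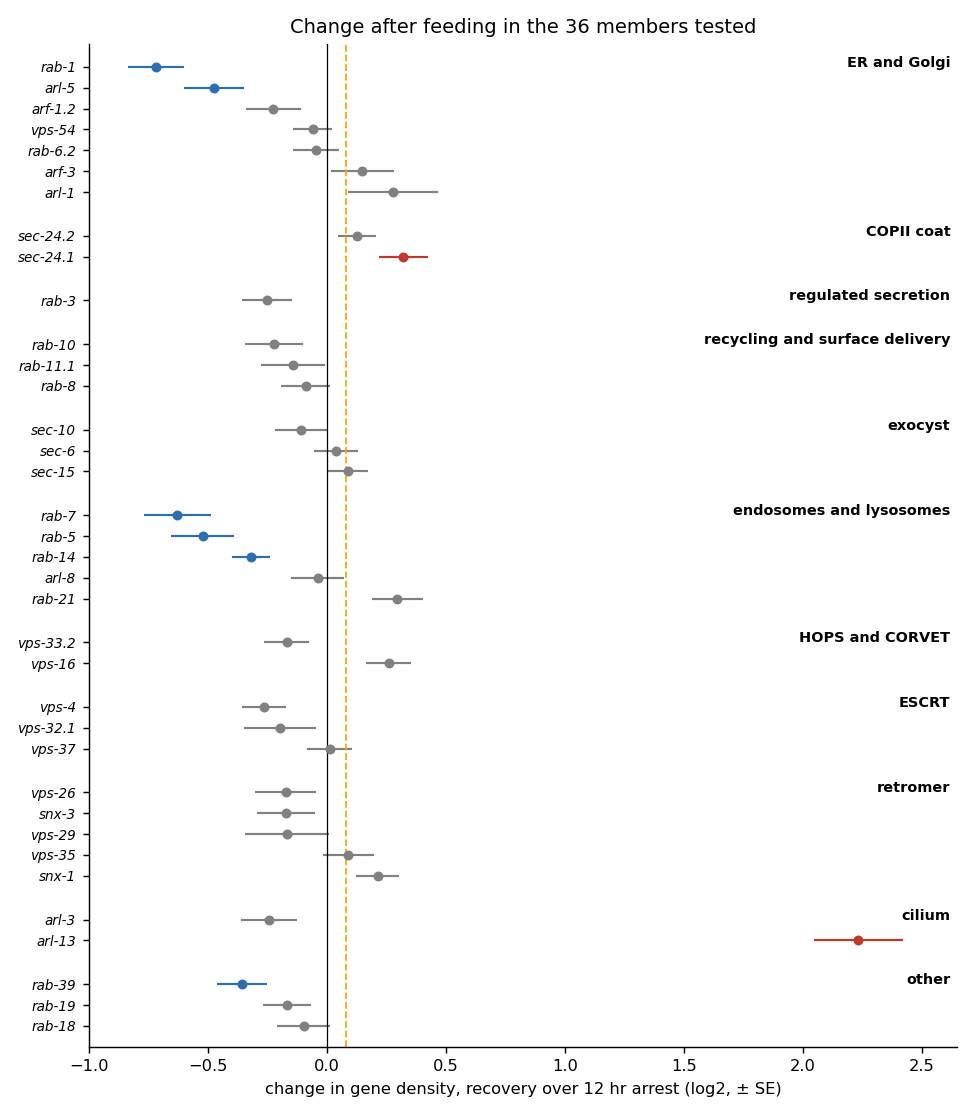
Change in gene density of each of the 36 genes tested, recovery over 12 hr arrest (log2 of RPKM + 5, point and bar are change ± SE of the limma fit over 8 libraries), grouped by role. Red marks genes called higher, blue genes called lower and grey genes not called, and the dashed line is the median of all genes tested (0.08). arl-13 stands at 2.23, and the other 35 genes lie between -0.72 and 0.32.

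The scale of the comparison matters to these directions. Quantile normalization put the all-gene median at -0.01, and scaling on 1353 chemoreceptor genes, a family largely silent outside neurons, put it at -0.25. The median of the 36 genes was then -0.21 and -0.46, a distance from the median of all genes of -0.20 and -0.22, against -0.21 as deposited. Over all genes the split between higher and lower calls was 1653 to 1090 as deposited, 1239 to 1501 after quantile normalization and 393 to 1598 on the chemoreceptor scale. Here it was 2 to 6 as deposited and 1 to 9 under both other scales.

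Traffic between the endoplasmic reticulum and the Golgi held the largest decrease. rab-1 (C39F7.4, chromosome V, 1262631 to 1263993, WS190) had 46.2, 32.8, 31.6 and 25.5 RPKM in recovery, against 74.8, 65.3, 61.2 and 37.4 RPKM in 12 hr arrest. Recovery was lower with every antibody, although the ranges overlapped because 8WG16 arrest lay below S2 recovery. The change was -0.72 ± 0.12 (adjusted p = 0.0023 by limma). The convergent gene C39F7.1, whose end lies 41 bp from that of rab-1, also fell, with a change of -1.34 ± 0.18 (adjusted p = 0.000835). The divergent gene C39F7.5, 781 bp away, changed by -0.31 ± 0.08 (adjusted p = 0.0181), and the part of either neighbour in the rab-1 value was not tested. arl-5, which encodes an Arf-like GTPase of the Golgi, had 25.2, 16.2, 15.3 and 11.2 RPKM in recovery, against 33.5, 32.9, 23.0 and 14.1 RPKM in 12 hr arrest. Each recovery library was below its arrest partner, and the ranges overlapped. The change was -0.47 ± 0.13 (adjusted p = 0.0196), and the overlapping gene lin-52, which shares 54 bp with arl-5, changed by -0.66 ± 0.12 (adjusted p = 0.00386). ZK632.9, convergent with arl-5 at a distance of 756 bp, changed by -1.56 ± 0.11 (adjusted p = 4.6e-05), and the part of either in the arl-5 value was not tested. With no filter on low values arl-5 was not called (adjusted p = 0.0599). The other 5 genes tested in this role were not called. Among them arf-3 (named arf-5 in current RefSeq) changed by 0.15 ± 0.13, and arf-1.2 (named arf-1 there) averaged 39.0 RPKM over all libraries.

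The COPII coat gene sec-24.1, whose product selects cargo leaving the endoplasmic reticulum, was called higher over its gene body as deposited. It had 42.7, 37.8, 33.2 and 23.3 RPKM in recovery, against 31.2, 25.0, 26.8 and 21.1 RPKM in 12 hr arrest. Recovery was higher in all 4 antibody pairs, and only the 8WG16 recovery value fell within the arrest range. The change was 0.32 ± 0.10 (adjusted p = 0.0388 by limma), but it was -0.05 (adjusted p = 0.92) on the chemoreceptor scale, 0.25 and not called after quantile normalization, and not called without either S2 library, either 4H8 arrest library or 4H8 recovery replicate 1. sec-24.2, the second SEC-24 gene, changed by 0.13 ± 0.08 and was not called, and sec-23 lay under the density filter.

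Of the 5 genes of endosomes and lysosomes, all were tested and 3 were called lower, against 15.1% of all genes tested. The 3 were called lower under both other scales too. Those scales moved the all-gene median down to -0.01 and -0.25 and called 1501 and 1598 of all 7214 genes lower. rab-7, the GTPase of late endosomes and lysosomes (W03C9.3, chromosome II, 11965137 to 11966848), had 44.4, 31.2, 22.2 and 22.1 RPKM in recovery, against 71.1, 48.2, 51.6 and 27.7 RPKM in 12 hr arrest. rab-5, the GTPase of early endosomes, had 27.0, 21.9, 14.0 and 14.0 RPKM in recovery, against 35.2, 32.0, 29.2 and 20.9 RPKM in 12 hr arrest. For both, each recovery library was below its arrest partner while the ranges overlapped, S2 being high and 8WG16 low in each state. The changes were -0.63 ± 0.14 for rab-7 (adjusted p = 0.0102) and -0.52 ± 0.13 for rab-5 (adjusted p = 0.0157), which was not called with no filter on low values (adjusted p = 0.051). rab-14, which takes part in phagosome maturation in C. elegans, had 15.5, 17.1, 16.5 and 17.8 RPKM in recovery, against 21.4, 22.9, 21.1 and 22.8 RPKM in 12 hr arrest. It was the only one of the 36 genes whose 4 recovery libraries all lay below the 4 arrest libraries, a separation seen at 10.3% of all genes tested. Its change was -0.32 ± 0.08 (adjusted p = 0.0157), its densities were close to the input value of 15.8 RPKM, and the call was lost without either S2 library or 4H8 arrest replicate 1.

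rab-7 sits among genes that changed the same way. It overlaps the convergent gene W03C9.2 by 131 bp, whose gene density changed by -0.96 ± 0.10 (adjusted p = 0.00026 by limma). Upstream on the same strand, W03C9.5 ends 113 bp before rab-7 and changed by -0.79 ± 0.11 (adjusted p = 0.00114). What part of the rab-7 value came from either neighbour was not tested. rab-5 overlaps no other model, but uev-3 begins 107 bp beyond its end on the same strand. The gene density of uev-3 lay under the filter, and its start window changed by -0.98 ± 0.28 (adjusted p = 0.00526). rab-21, which acts in early endosome traffic, had 25.3, 19.3, 23.2 and 24.6 RPKM in recovery, against 21.2, 17.8, 18.2 and 14.4 RPKM in 12 hr arrest. It was higher in all 4 pairs and was not called. arl-8, the GTPase that positions lysosomes, changed by -0.04 and was not called.

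**Figure D2:**
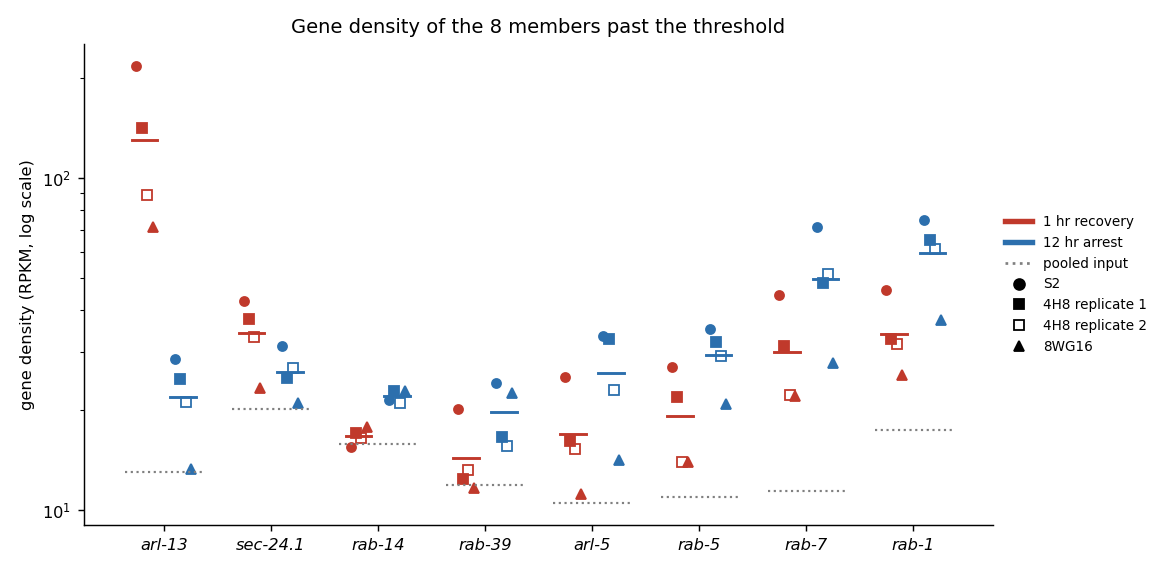
Gene density (RPKM, log axis) of the 8 genes called between recovery (red, left of each pair) and 12 hr arrest (blue, right), 1 point per library with the shape giving the antibody, a horizontal bar for the mean of 4 libraries and a dotted line for the pooled input. arl-13 spans 71.5 to 218 RPKM in recovery and 13.3 to 28.5 RPKM in 12 hr arrest, rab-14 has no overlap either, and the ranges of the 2 states overlap at the other 6 genes.

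arl-13, required for ciliary structure and membrane protein transport, had by far the largest difference among the 36 genes. Its gene density (Y37E3.5, chromosome I, 2065751 to 2069051) was 218, 141, 88.8 and 71.5 RPKM in recovery, against 28.5, 24.9, 21.1 and 13.3 RPKM in 12 hr arrest. All recovery libraries lay above all arrest libraries, and S2 was highest and 8WG16 lowest in both states. The change was 2.23 ± 0.19 (adjusted p = 7.53e-05 by limma), and it stayed called under each of the 16 alternatives run, between 1.83 and 2.49. Of the other genes of cilia, arl-3 changed by -0.24 and was not called, and its mean of 23.7 RPKM was near its input of 24.1 RPKM. All 840 bp of the arl-3 model overlap tps-2 on the same strand. tps-2 changed by -0.39 ± 0.10 (adjusted p = 0.0168 by limma), and its part in the arl-3 value was not tested. arl-6 and rab-28 lay under the density filter, with means of 7.11 and 6.04 RPKM that were below their input values. Among the 36 genes tested, snx-1 was the only other one with all recovery libraries above all arrest libraries, which 14.4% of all genes tested also had. Its change was 0.21 ± 0.09 (adjusted p = 0.0926). Its mean density was 20.5 RPKM in recovery and 16.95 RPKM in 12 hr arrest, near or below the input of 20 RPKM.

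The neighbourhood of arl-13 carried more polymerase in recovery as a whole. The ribosomal stalk gene rla-1 converges on arl-13 with its end 32 bp away, and its gene density averaged 1109 ± 480 RPKM in recovery and 231 ± 77.2 RPKM in 12 hr arrest (SD, n = 4 libraries each), a change of 2.21 ± 0.17 (adjusted p = 5.39e-05 by limma). Beyond it Y37E3.8, which ends 628 bp from arl-13, changed by 1.91 ± 0.15 (adjusted p = 5.88e-05). Upstream, Y37E3.4 ends 267 bp before the start of arl-13 and changed by 1.01 ± 0.14 (adjusted p = 0.000919). The start of arl-13 did not move with its body. TSS density was 181, 129, 78.5 and 45.4 RPKM in recovery, against 137, 129, 104 and 68.1 RPKM in 12 hr arrest. The ranges overlapped with 2 pairs higher and 2 lower, and the change was -0.13 ± 0.25 (adjusted p = 0.734). Which share of the density over the arl-13 model came from reads of the convergent rla-1 was not tested.

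**Figure D3:**
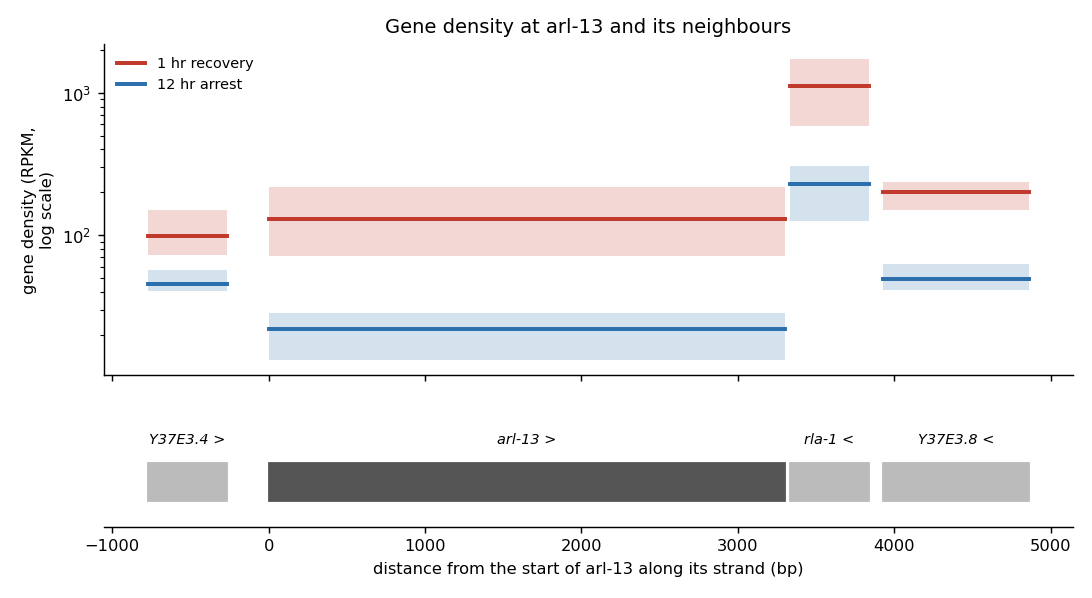
Gene density (RPKM, log axis) over arl-13 and its 3 neighbours against distance from the arl-13 start in bp along its strand, with lines for the mean of 4 libraries and shading for their range in recovery (red) and 12 hr arrest (blue). Boxes below show the gene models, with > for the arl-13 strand and < for the other, and all 4 models have non-overlapping ranges, with means of 130 RPKM in recovery and 22.0 RPKM in 12 hr arrest at arl-13, and 1109 RPKM in recovery and 231 RPKM in 12 hr arrest at rla-1.

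The remaining called gene was rab-39, one of 5 genes left outside the named roles, 3 of which were tested over the gene. It had 20.1, 12.4, 13.2 and 11.7 RPKM in recovery, against 24.2, 16.6, 15.6 and 22.5 RPKM in 12 hr arrest. Every recovery library was below its arrest partner, most of all with 8WG16, and the ranges overlapped. The 8WG16 gap rested on 13 reads in recovery and 32 reads in 12 hr arrest. rab-39 had an input of 11.9 RPKM, close to its 4H8 and 8WG16 recovery values. Its change was -0.36 ± 0.10 (adjusted p = 0.0287 by limma), which was -0.24 and not called without either 8WG16 library. The call was also lost with no filter on low values and without either S2 library or 4H8 replicate 1 of either state.

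Sorting and tethering complexes showed no call over the gene body, against 38% of all genes tested, but each group below held only 3 to 9 tested genes. None of the 9 vps genes tested passed the threshold, with changes from -0.26 to 0.26. The same held for the 5 retromer genes and sorting nexins (-0.17 to 0.21), the 3 ESCRT genes (-0.26 to 0.01), the 3 exocyst genes (-0.11 to 0.09) and the 3 genes of recycling and surface delivery (-0.22 to -0.09). vps-4, the ATPase that disassembles ESCRT, was lower in all 4 pairs at -0.26 ± 0.09 (adjusted p = 0.0541), and it was called lower when same-numbered libraries were treated as pairs. rab-11.1, the gene of highest density, had 84.1, 80.5, 64.1 and 57.8 RPKM in recovery, against 95.2, 84.2, 87.7 and 54.3 RPKM in 12 hr arrest. The ranges overlapped and the change of -0.14 ± 0.13 was not called (adjusted p = 0.423). Its divergent neighbour rpl-7, a ribosomal protein gene starting 979 bp away, rose by 1.99 ± 0.16 (adjusted p = 6.77e-05).

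At the start windows every call was a decrease. Of the 56 genes, 39 passed the filter, 7 fell and none rose, while over all 6808 genes tested 28.7% were called, 21.7% lower and 6.99% higher. The 7 were sec-24.1, rab-7, vps-33.2, vps-26, rab-11.1, vps-34 and vps-45, or 4 of the 12 vps genes tested, 2 of 12 Rab genes and 1 of 6 sec genes. The median change was -0.31 for the 39 genes and -0.15 for all genes tested. No member rose under quantile normalization or the chemoreceptor scale, where 5 and 15 fell. Over all 6808 genes tested, 1027 and 2115 were called lower under these scales, and 648 and 170 higher. The all-gene median was then -0.03 and -0.49. The 4 recovery libraries all lay below the 4 arrest libraries at 7 genes (rab-11.1, rab-14, sec-24.1, vps-26, vps-33.2, vps-34 and vps-45), against 15.8% of all genes tested, and lay above them at none, against 4.63%. Recovery was lower in all 4 pairs at 11 of the 39 genes and higher in all 4 at none, against 29.3% and 13.8% of all genes tested.

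sec-24.1 had 22.8, 40.0, 23.9 and 18.9 RPKM at its start in recovery, against 80.8, 91.1, 51.7 and 113 RPKM in 12 hr arrest. The groups did not overlap, and the gap was widest with 8WG16. The change was -1.50 ± 0.27 (adjusted p = 2.23e-05 by limma), in the opposite direction to its gene body as deposited. rab-7 had 58.1, 25.5, 13.0 and 24.1 RPKM in recovery, against 119, 66.0, 64.5 and 56.6 RPKM in 12 hr arrest. All 4 pairs were lower in recovery, and only S2 recovery reached the arrest range, where it exceeded 8WG16. The change was -1.31 ± 0.26 (adjusted p = 9.02e-05). The start of W03C9.5, 600 bp from that of rab-7, changed by -1.82 ± 0.26 (adjusted p = 4.64e-07), and its part was not tested. rab-7 was, with sec-24.1, one of only 2 genes called both over the gene and at the start.

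vps-33.2, a homologue of the mammalian Sec1/Munc18-type protein VPS33B, had 45.0, 27.8, 28.1 and 34.8 RPKM at its start in recovery, against 106, 96.3, 68.0 and 77.9 RPKM in 12 hr arrest. Each arrest library exceeded every recovery library, and the change was -1.25 ± 0.25 (adjusted p = 0.000103 by limma). The divergent gene C56C10.11 starts 104 bp away, so that the windows share reads, and its start window changed by -0.86 ± 0.25 (adjusted p = 0.00716). vps-26, a core retromer subunit, had 22.8, 17.8, 11.1 and 7.56 RPKM in recovery, against 59.7, 42.9, 23.7 and 26.7 RPKM in 12 hr arrest. The groups were separate, by a small margin between S2 recovery and 4H8 arrest replicate 2, and the change was -1.11 ± 0.27 (adjusted p = 0.00135). The start of T20D3.8, a gene ending 202 bp upstream, changed by -0.77 ± 0.29 (adjusted p = 0.0423). With no filter on low values neither vps-26 nor sec-24.1 was called (adjusted p = 0.0602 and 0.0655). rab-11.1 changed by -0.99 ± 0.27 (adjusted p = 0.00343). Its start window had 24.4, 17.8, 11.9 and 11.3 RPKM in recovery, against 44.5, 33.9, 32.3 and 35.5 RPKM in 12 hr arrest. The input there was 16.4 RPKM, above the recovery values of 4H8 replicate 2 and 8WG16. In 8WG16 recovery 11.3 RPKM corresponds to 3 reads, and the vps-26 value of 7.56 RPKM to fewer.

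vps-34 and vps-45 were called with smaller changes. vps-34, the class III phosphatidylinositol 3-kinase of endosomes and autophagy, changed by -0.77 ± 0.27 (adjusted p = 0.028 by limma). vps-45, an endosomal Sec1/Munc18 protein, changed by -0.67 ± 0.26 (adjusted p = 0.0437). Both calls were lost when single libraries were left out, vps-34 without any library except 4H8 arrest replicate 1, and vps-45 without any except 4H8 arrest replicate 2. Both were also lost with no filter on low values and after quantile normalization, where vps-34 changed by -0.69 (adjusted p = 0.0751) and vps-45 by -0.28 (adjusted p = 0.441). The vps-45 call was lost too with a pseudocount of 1 and on the authors' fold enrichment. C44C1.6, which begins 349 bp beyond the end of vps-45, changed at its own start by -0.67 ± 0.26 (adjusted p = 0.0473). None of the 8 ER and Golgi genes tested was called at its start, rab-1 included (-0.52 ± 0.28, adjusted p = 0.167), against 28.7% of all genes tested.

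**Figure D4:**
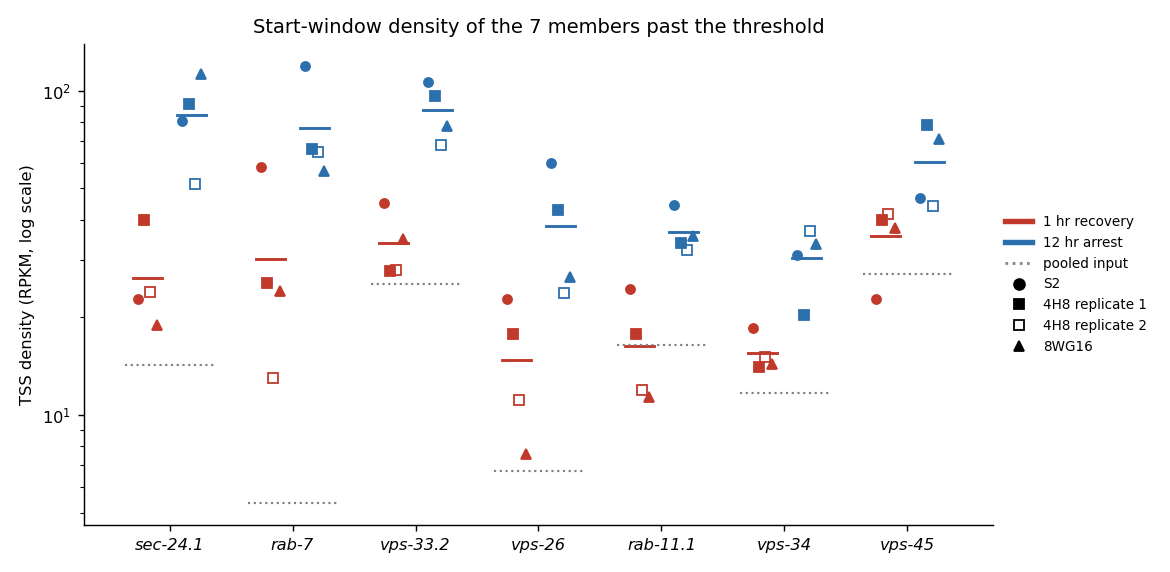
TSS density (RPKM in the 200 bp start window, log axis) of the 7 genes called lower in recovery (red, left of each pair) than in 12 hr arrest (blue, right), 1 point per library with the shape giving the antibody, a bar for the mean of 4 libraries and a dotted line for the pooled input. Red and blue points separate fully at every gene shown except rab-7, where S2 recovery (58.1 RPKM) lies above 8WG16 arrest (56.6 RPKM).

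The S2 column at 6 hr of arrest did not place these start windows alike. At sec-24.1 it held 23.2 RPKM, against 80.8 RPKM in S2 at 12 hr and 22.8 RPKM in S2 recovery. At vps-33.2 it held 30.5 RPKM, against 106 RPKM at 12 hr and 45.0 RPKM in recovery, and at vps-45 it held 15.4 RPKM, against 46.8 and 22.8 RPKM. At these 3 genes the S2 start density at 6 hr lay nearer to the recovery value than to the 12 hr value. The start-window input was 14.3 RPKM at sec-24.1, 25.4 RPKM at vps-33.2 and 27.3 RPKM at vps-45. At vps-45 the S2 values at 6 hr and in recovery were thus below the input, and at vps-33.2 the 6 hr value was little above it. At vps-26 the 6 hr value was 44.4 RPKM, against 59.7 RPKM at 12 hr and 22.8 RPKM in recovery, and at rab-7 it was 76.2 RPKM, against 119 and 58.1 RPKM. At rab-11.1 it was 27.0 RPKM, against 44.5 RPKM at 12 hr and 24.4 RPKM in recovery, and at vps-34 it was 24.4 RPKM, against 31.1 and 18.6 RPKM. The 6 hr value was nearer to recovery at rab-11.1 and rab-7 too, about midway at vps-34 and nearer to 12 hr at vps-26. These are single columns for 6 hr, 12 hr and recovery, and the differences between them at the start windows were not tested.

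The 5' bias compares the start window with the gene body, as log2(TSS density + 5) minus log2(gene density + 5) for models of at least 1000 bp, and was tested for 38 of the 56 genes. It fell at 7 and rose at none, while over all 7561 genes tested 16% were called, 14.4% lower and 1.55% higher. The median change was -0.24 here and -0.20 over all genes tested. arl-13 had the largest change, with a bias of -0.26, -0.13, -0.17 and -0.60 in recovery, against 2.08, 2.16, 2.07 and 2.00 in 12 hr arrest. Values were close together within each state and far apart between them. The change was -2.37 ± 0.23 (adjusted p = 1.84e-06 by limma), and the bias in the 6 hr S2 column was 1.86.

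sec-24.1 had a bias of -0.78, 0.07, -0.40 and -0.25 in recovery, against 1.25, 1.68, 0.83 and 2.17 in 12 hr arrest, without overlap. The change was -1.82 ± 0.28 (adjusted p = 0.000127 by limma), and its 6 hr value was -0.04. vps-33.2 had 0.79, 0.33, 0.53 and 1.19 in recovery, against 1.68, 1.79, 1.55 and 2.12 in 12 hr arrest, again without overlap, and changed by -1.08 ± 0.23 (adjusted p = 0.00214). vps-35, the large retromer subunit, had -1.81, -0.03, -0.67 and -1.79 in recovery, against -0.46, 0.30, -0.24 and 1.08 in 12 hr arrest. Its groups overlapped, and 2 of its recovery start windows, S2 and 8WG16, were listed at 0 RPKM. Averaged over the 9 libraries, its gene density (11.4 RPKM) and TSS density (8.83 RPKM) were below the input (12.4 and 12.6 RPKM). The change was -1.24 ± 0.36 (adjusted p = 0.0211), and it was not called without any one of the S2 and 8WG16 libraries, with no filter on low values or with a pseudocount of 1. vps-26 (-0.94 ± 0.26, adjusted p = 0.0145), rab-11.1 (-0.85 ± 0.28, adjusted p = 0.0419) and vps-45 (-0.68 ± 0.23, adjusted p = 0.045) also fell. The rab-11.1 call was lost with the replicate number as a block (adjusted p = 0.052) and in 13 of the other 16 alternatives. The vps-26 call was lost in 7 of 17 alternatives, namely with no filter, after quantile normalization, and without either S2 library, either 8WG16 library or 4H8 arrest replicate 1. The vps-45 call was lost in 10 of 17, and its change was -0.12 (adjusted p = 0.82) after quantile normalization. Of the libraries left out singly, the vps-45 call held without 8WG16 arrest and without 4H8 arrest replicate 2. The gene density of vps-45 averaged 9.22 RPKM over the 9 libraries, below its input of 12.55 RPKM.

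The scatter of both changes sets gene density beside start density. Among the 29 genes tested for both, rab-7 was lower in both measures, sec-24.1 was higher over the gene as deposited and lower at the start, and arl-13, rab-1, rab-5 and rab-14 were called over the gene alone. rab-11.1, vps-26 and vps-33.2 were called at the start alone, and whether the changes in both measures differ was tested only by the 5' bias. By that test arl-13, sec-24.1, vps-33.2, vps-26 and rab-11.1 were called for unequal changes, vps-26 and rab-11.1 not under every alternative, as given above, and vps-33.2 not after quantile normalization. rab-1 (0.19 ± 0.30, adjusted p = 0.732), rab-5, rab-7 and rab-14 were not called.

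**Figure D5:**
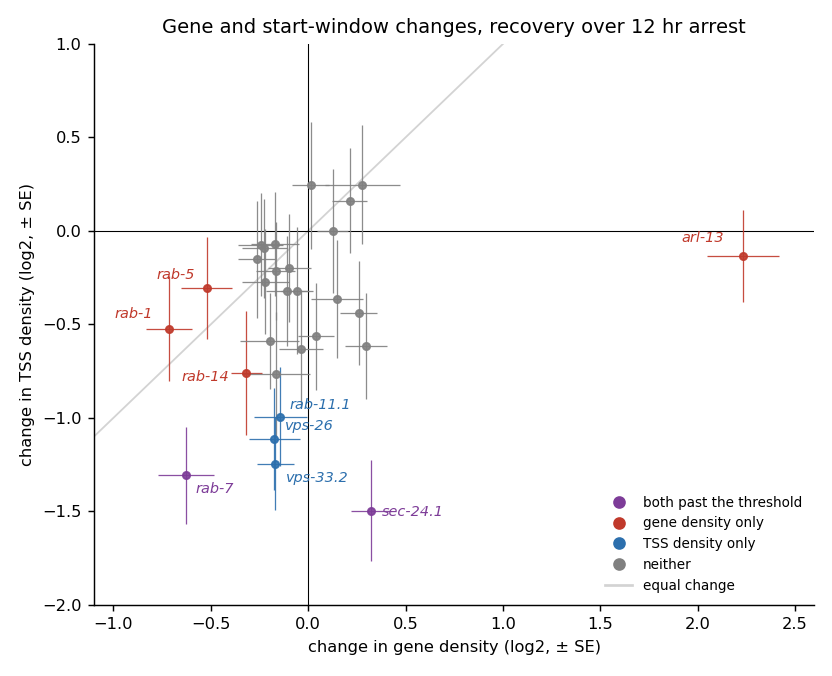
Change in TSS density against change in gene density, recovery over 12 hr arrest (both log2 of RPKM + 5, bars ± SE of the limma fits), for the 29 genes tested in both measures, coloured by which change was called, with the grey diagonal marking equal change. arl-13 lies far right of the diagonal at 2.23 and -0.13, sec-24.1 is at 0.32 and -1.50, and rab-7 is at -0.63 and -1.31.

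With 4H8 alone, the antibody with 2 libraries per state, 2 of the 36 genes were called, against 14% of all 7240 genes tested, 7.85% higher and 6.13% lower. arl-13 changed by 2.07 ± 0.27 (adjusted p = 0.00758 by limma) and rab-1 by -0.88 ± 0.19 (adjusted p = 0.0321). With the replicate number as a block 6 were called, rab-5, rab-7, rab-10 and arl-5 being the additions, each lower. Over all 7240 genes tested, that fit called 1551 higher and 957 lower, so calls became more frequent among all genes too. Whether 4H8 and S2 responded differently was tested by their difference in response, and no membrane traffic gene was called (0 of 36, none with an unadjusted p under 0.05), against 0.0276% of all genes tested (2 genes, and 107 with an unadjusted p under 0.05). The largest such difference was at arl-13, whose response was lower with 4H8 by -0.67 ± 0.47 and not called.

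Time in arrest was compared with S2 only, 12 hr against 6 hr, with 1 column each and a spread borrowed from the 4H8 replicates. Of the 36 genes none was called, nor was any of the 7240 genes tested (0%), and 2 of the 36 and 500 of all genes had an unadjusted p under 0.05. The 2 were rab-39, with 24.2 RPKM at 12 hr and 13.8 RPKM at 6 hr (a difference of 0.64 ± 0.17, adjusted p = 0.551), and snx-3, with 24.3 RPKM at 12 hr and 13.9 RPKM at 6 hr (0.63 ± 0.21, adjusted p = 0.67). Both were named after their values were seen. At rab-1 S2 gave 74.8 RPKM at 12 hr and 71.9 RPKM at 6 hr, and at arl-13 it gave 28.5 and 26.6 RPKM, so the levels of these genes in S2 were close at both times of arrest.

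The wider machinery was followed in 5 lists of 168 genes, of which 160 were found in the tables. Over the gene, 96 were tested, with 16 higher and 18 lower, against 22.9% higher and 15.1% lower over all genes tested. The same shares are the background for each list's counts over the gene below. The list of coatomer, COPII, Golgi and exocyst genes had 10 higher and 3 lower of 22 tested, with a median change of 0.23 against 0.08 for all genes. The largest increase was at spcs-3, a signal peptidase subunit also placed in this list (0.56 ± 0.15, adjusted p = 0.0177 by limma). Next were tfg-1, an organiser of ER exit sites (0.54 ± 0.12, adjusted p = 0.00929), and copa-1, the alpha subunit of coatomer (0.51 ± 0.10, adjusted p = 0.00538). On the chemoreceptor scale none of the 22 was called higher, 3 were called lower and the median was -0.09, while quantile normalization gave 7 higher and 3 lower. The chemoreceptor scale moved all genes down too, with 393 of 7214 called higher, 1598 lower and a median of -0.25. Quantile normalization called 1239 of all 7214 genes higher and 1501 lower. The decreases in this list were at cogc-1 and cogc-6 of the Golgi COG tether (-0.51 ± 0.08 and -0.35 ± 0.10) and at erd-2, the receptor that retrieves ER proteins (-0.41 ± 0.10).

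SNAREs and fusion factors had none higher and 4 lower of 16, led by nbet-1, an ER to Golgi SNARE (-1.03 ± 0.12, adjusted p = 0.000329 by limma). Clathrin, adaptor and dynamin genes had none higher and 3 lower of 16, led by dab-1, a clathrin adaptor (-0.77 ± 0.10, adjusted p = 0.000852). Endosome and lysosome factors had 1 higher and 4 lower of 21. The fall was steepest at lgg-1, the C. elegans member of the Atg8 family of autophagy proteins (-1.82 ± 0.15, adjusted p = 7.47e-05), and the gene called higher was rme-2, the yolk receptor (0.54 ± 0.16, adjusted p = 0.0305). The list of Rab and Arf regulators had 5 higher and 4 lower of 21. Its highest change was at evl-20, itself an Arl2-type GTPase placed in this list (0.77 ± 0.14, adjusted p = 0.00428). Its lowest was at tbc-14, a TBC-domain protein (-0.54 ± 0.09, adjusted p = 0.00258). On the chemoreceptor scale neither rme-2's list nor the regulator list had any gene called higher, against 393 of all 7214 genes tested.

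At the start windows the 5 lists had 94 genes tested, 1 higher and 30 lower, against 6.99% higher and 21.7% lower over all genes tested. The steepest decreases were at lgg-1 (-2.04 ± 0.26, adjusted p = 4.17e-08 by limma), exoc-7, an exocyst subunit (-1.92 ± 0.28, adjusted p = 7.22e-07), and cogc-8 of the COG tether (-1.74 ± 0.26, adjusted p = 8.65e-07). The single increase was at tbc-20 (1.42 ± 0.27, adjusted p = 5.84e-05). Coatomer, COPII, Golgi and exocyst genes, 10 of which were higher over the gene as deposited, had none higher and 10 lower of 25 at the start. The 5' bias was called at 21 of 110 genes of these lists, 2 higher and 19 lower, against 1.55% higher and 14.4% lower over all genes tested, with a median of -0.31 against -0.20 for all genes.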

How the data were processed

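RNA polymerase II ChIP-seq of C. elegans comprised 14 samples, 10 ChIP and 4 input, held in 9 ChIP columns and 1 input column. The input column names no sample and is taken as the pool. The 6 hr S2 column carries the title of 1 of 2 samples, and whether it holds both is not stated. The authors deposited RPKM values per gene model and per 200 bp start window, with WS190 coordinates, per the file headers. Fold enrichment over input and 5' bias are ratios the authors deposited, used only as alternatives. The aligner is not given in the sources used here. Depths came from the RPKM step of 1 read, which made 97.6% to 99.5% of gene densities and 90.4% to 92.0% of TSS densities in ChIP libraries whole reads within 0.1 read.

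Tests used limma 3.58.1 in R 4.3.3 on log2(RPKM + 5), two-sided, with a mean-variance trend (lmFit, eBayes), for genes of at least 10 RPKM mean density. For 5' bias either density could reach 10 RPKM. Recovery was compared with 12 hr arrest in 8 libraries with antibody as a term. The 4H8, time and antibody-difference contrasts came from all 9 libraries in 7 groups, where a lone library is assumed to vary like the 4H8 replicates. A planned comparison with separate inputs was not possible. The labels give arrest and recovery libraries of 1 antibody and number a shared identifier, and deviations of the 4H8 replicates correlated between states (r = 0.347 over 7214 genes), so they were treated as pairs in an alternative fit. The labels do not say whether antibodies shared chromatin, so p-values may partly measure technical spread. Scripts were tested on simulated data. The name rule that defines the members uses no measured value, but it and the lists were chosen with earlier results of these data known. Values in every library are given for called members of largest change (up to 12 for gene density, 4 for other measures) and the 3 of highest density. Tables were made with pandas 2.3.3 in Python 3.11.15, and plots with matplotlib 3.10.9.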

Additional observations from a re-analysis of the deposited data

How the results depend on the processing

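Gene density calls, 8 of 36, numbered 5 with no filter on low values and 5 to 9 when single libraries were left out (5 without either S2 library or without 4H8 arrest replicate 1). Start window calls, 7 of 39, numbered 3 with no filter, 15 on the chemoreceptor scale and 5 to 7 when single libraries were left out. On the chemoreceptor scale 2115 of all 6808 genes were called lower at the start and 170 higher. With no filter, 1521 of all 20314 genes were called higher and 902 lower in gene density, and 164 and 505 at the start. Without S2 arrest, 1095 of all 7264 genes were called higher and 689 lower in gene density. These counts were 1049 and 716 of 7258 without S2 recovery, and 1152 and 798 of 7386 without 4H8 arrest replicate 1. The 5' bias calls, 7 of 38, numbered 4 with a pseudocount of 1, 3 with no filter, 3 after quantile normalization and 4 with the authors' deposited 5' bias. Bias calls over all genes were 51 higher and 693 lower of 7561 with a pseudocount of 1, and 42 and 346 of 16323 with no filter. They were 267 and 528 of 7561 after quantile normalization, and 42 and 687 of 6393 with the deposited bias. Leaving out single libraries gave 3 to 6 calls here (3 without either S2 library or 8WG16 recovery, 4 without 8WG16 arrest or 4H8 arrest replicate 1). The 4H8 calls, 2 of 36, numbered 0 with no filter, 5 at 20 RPKM, 4 after quantile normalization, 0 on the chemoreceptor scale, 5 on the authors' fold enrichment and 1 to 4 when single libraries were left out (1 without arrest replicate 1, 4 without recovery replicate 1). Without a filter more genes entered both the fit and its adjustment. The cause of the changed counts was not tested for any setting.

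With the replicate number as a block, gene density calls numbered 9 (vps-4 added), start window calls 7, 5' bias calls 6 (rab-11.1 lost) and 4H8 calls 6, and no other call of a membrane traffic gene changed. Over all genes tested, 1969 were then called higher and 1189 lower in gene density, and 1551 and 957 with 4H8. The time and antibody-difference contrasts had 0 calls under each alternative run. Across 355 combinations of a called gene and an alternative, 276 kept direction and call, 78 lost the call, and 1 reversed, the gene density of sec-24.1 on the chemoreceptor scale (-0.047). In alternatives chosen after seeing the data, 6 gene density calls of 25 and 7 bias calls of 28 remained among models overlapping no other, and 6 start calls of 38 among starts at least 200 bp from any other start. Models with a close neighbour but no overlap stayed in, such as arl-13 (32 bp from rla-1) and rab-1 (41 bp from C39F7.1). What such neighbours added was not tested. Start windows of few reads limit all TSS values.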
